A study of Mus musculus with 8 samples.

Results

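Genes that mark blood-derived immune cells were followed across cultured spermatogonial stem cells of the mouse, which keep up sperm production for life. The set holds 38 genes in 4 lineages: 23 genes carried by most leukocytes, 9 of macrophages and monocytes, 4 of mast cells and 2 of natural killer cells. The genes are known leukocyte markers, taken as selected on the same arrays' log2 differences between long and short culture. Which values chose them is not stated, but earlier results of these arrays, in which several were lower after long culture, were known. Differences between long and short culture therefore only describe the set: calls of the fit are counted beside their share over all probe sets, no p is printed for them and nothing is supported with them. Each gene was read through the probe set that carries its symbol alone, taking the brightest by its mean over all 8 arrays, and all 38 had exactly 1 such probe set among 19938 genes.

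The arrays held total RNA of cultured stem cells in 3 groups. In the serial-transplant long-culture group (n = 2 arrays) the label gives a donor age of 1500 days and a culture of 14 to 18 months. The young-donor long-culture group (n = 3) came from donors of 8 days and was cultured equally long, and the young-donor short-culture group (n = 3) came from donors of 8 days after 7 to 10 weeks. Serial transplantation moves stem cells from testis to testis, so donor age and transplantation cannot be told apart. The sources used here do not give mouse strain, feeder cells, how stem cells were taken from the cultures, or whether replicates are separate cultures. Fits therefore measure the spread between arrays, which may be technical, and the number of arrays limits their precision.

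Leukocytes live in the testis between the tubules: macrophages are the most common, and mast cells and lymphocytes are rarer. Most leukocytes carry the phosphatase CD45 on their surface, pack enzymes into granules around the proteoglycan serglycin, and signal through small adaptor proteins with a tyrosine motif that recruits the kinase Syk. Macrophages are recognised by surface proteins such as the products of Adgre1 and Itgam, mast cells by granule proteases and the IgE receptor, and natural killer cells by lectin-like receptors and by granzymes and perforin. The transcription factor PU.1 (gene Spi1) acts in myeloid and B cells, GATA factors act in mast cells and RUNX factors in many blood lineages.

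Promoter sequence was examined because many members moved together between groups. Known motifs of PU.1, GATA factors and RUNX factors were searched on both strands of RefSeq windows, build GRCm38.p6, that run from 250 bases before to 50 bases after the start of a gene. No searched motif contains another. Of the 38 members, 26 had such a window. The PU.1 letters (GAGGAAGT) were found in 3 of these 26 (Cd37, Cd53 and Vav1) against 3.69% of all 27025 genes with a window. The GATA letters (AGATAA) were found in 5 (Arhgdib, Cpa3, Cybb, Fcer1a and Ptprc) against 12.7% of all genes. The RUNX letters (TGTGGTT) were found in 7 (Cpa3, Cybb, Cytip, Fcer1a, Lyz2, Srgn and Was) against 6.09%. A match is a description of the letters and not a site. Of the members given by array below, 9 had a window: 1 held the PU.1 letters, 3 the GATA letters and 2 the RUNX letters. Among the matched members, Arhgdib, Cd53, Cpa3, Ptprc and Srgn were called lower in both comparisons with short culture. Cd37, Vav1, Cybb, Cytip, Fcer1a, Lyz2 and Was were called in neither. A link between letters and levels was not tested. Windows with a match are shown for 4 members whose levels are described next, with the matched letters in capitals: Cpa3 (chr3:20242132-20242431, minus strand, RUNX on the reverse strand at -74 and GATA at -46, in bases from the start), Cd53 (chr3:106790100-106790399, minus strand, PU.1 on the reverse strand at 6), Srgn (chr10:62507708-62508007, minus strand, RUNX on the reverse strand at -203) and Ptprc (chr1:138175077-138175376, minus strand, GATA at -25). Srgn and Ptprc each have a second window with no match.
Cpa3: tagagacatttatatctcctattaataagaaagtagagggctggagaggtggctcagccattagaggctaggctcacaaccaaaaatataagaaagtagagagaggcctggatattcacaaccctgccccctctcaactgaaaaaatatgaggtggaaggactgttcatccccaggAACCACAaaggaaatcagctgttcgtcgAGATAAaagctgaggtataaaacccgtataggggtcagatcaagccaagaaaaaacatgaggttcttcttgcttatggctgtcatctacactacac
Cd53: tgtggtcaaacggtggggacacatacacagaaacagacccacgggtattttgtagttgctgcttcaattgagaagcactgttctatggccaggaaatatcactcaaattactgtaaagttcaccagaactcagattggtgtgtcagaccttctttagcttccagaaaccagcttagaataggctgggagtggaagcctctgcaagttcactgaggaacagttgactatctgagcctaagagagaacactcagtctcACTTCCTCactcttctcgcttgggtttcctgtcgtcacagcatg
Srgn: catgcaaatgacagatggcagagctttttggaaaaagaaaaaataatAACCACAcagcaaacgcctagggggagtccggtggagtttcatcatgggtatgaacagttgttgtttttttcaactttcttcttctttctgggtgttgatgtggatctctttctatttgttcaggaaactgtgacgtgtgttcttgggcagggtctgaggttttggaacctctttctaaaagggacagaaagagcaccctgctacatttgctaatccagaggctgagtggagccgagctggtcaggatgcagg
Ptprc: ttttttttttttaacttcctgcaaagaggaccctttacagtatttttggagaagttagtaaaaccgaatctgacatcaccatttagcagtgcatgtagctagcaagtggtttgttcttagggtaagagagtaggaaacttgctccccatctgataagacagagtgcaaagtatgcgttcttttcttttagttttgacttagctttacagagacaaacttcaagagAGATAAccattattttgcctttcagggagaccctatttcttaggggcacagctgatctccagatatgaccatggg

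The deposited values are log2 signals from RMA, a method that gives no detection call. The mark of background was the 95th percentile of the 8-array means of 1027 olfactory receptor genes, which most tissues outside the nose do not express, and lay at 5.98. With this mark 16 of the 38 members lay above background in serial-transplant long culture, 16 in young-donor long culture and 27 in young-donor short culture. The 27 members above the mark in some group were all above it in short culture. Of these, 10 were above it there alone: Ptprc, Laptm5, Srgn, Fcer1g, Cd53 and Plek among the pan-leukocyte genes, the monocyte gene Cd14, the mast cell gene Cpa3, and the natural killer genes Il2rb and Klrd1. Just inside the mark lay Klrd1 (highest group mean 6.06), Cd14 (6.08) and Plek (6.08), and just outside it Aif1 (5.86) and Cd52 (5.75). Klrd1, Cd14 and Plek passed it in short culture only through short-culture array 2, and without that array 24 members lay above it there. At the 75th and 99th percentiles of the olfactory receptor genes the counts were 32 and 6 in serial-transplant long culture, 32 and 8 in young-donor long culture and 36 and 21 in short culture.

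**Figure D1:**
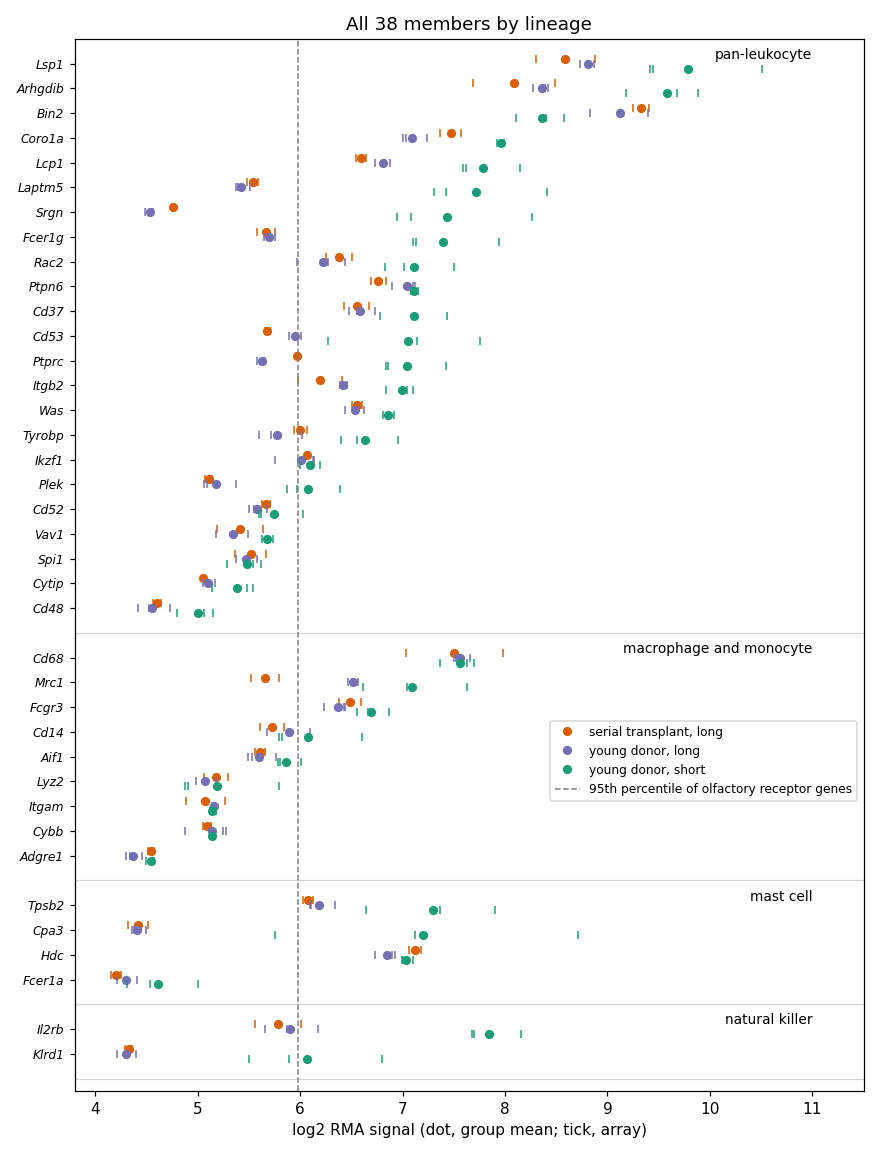
All 38 members by lineage on the log2 RMA scale (horizontal axis), with a dot for each group mean, a tick for each array and a dashed line at the background mark of 5.98. Short-culture dots lie right of the mark for 27 members, and most macrophage genes lie left of it in every group.

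The 9 macrophage members were split at the mark. By group mean, Cd68 and Fcgr3 lay above it in every group, Mrc1 in short and young-donor long culture and Cd14 in short culture. The other 5, with the macrophage-defining markers Adgre1 and Itgam among them, lay under it in every group. Adgre1, the classical surface marker of mouse macrophages, lay between 4.30 and 4.58 in all 8 arrays, under the mark of 5.98. Itgam, an integrin chain of myeloid cells, averaged 5.07 ± 0.27, 5.16 ± 0.01 and 5.14 ± 0.03 (SD) in serial-transplant long, young-donor long and young-donor short culture. Cybb, the oxidase subunit of phagocytes, averaged 5.09, 5.13 and 5.14 in the same order of groups. These genes were thus at background in every group. Lyz2 (lysozyme) was also under the mark in every array, with its highest value, 5.79, in short-culture array 2. Aif1 (the macrophage protein IBA1) reached the mark in 1 array, short-culture array 1, at 6.01. Spi1, which encodes PU.1, lay between 5.28 and 5.67 in all arrays. Of 20 further macrophage markers, 5, 4 and 5 lay above the mark in serial-transplant long, young-donor long and young-donor short culture, led by Mertk, Trem2 and Cx3cr1. In each comparison with short culture 1 of the 20 was called lower. This is near the share of all probe sets called lower, 5.15% in serial-transplant and 5.83% in young-donor long culture. The gene was the chemokine receptor gene Ccr2, at -1.20 ± 0.15 in serial-transplant and -1.17 ± 0.13 in young-donor long culture. Its group means of 4.15 and 4.17 in the long cultures, against 5.34 in short culture, were all under the mark. Csf1r, the receptor that macrophages need to survive, averaged 5.47, 5.27 and 5.54, below the mark in all 3 groups.

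The pan-leukocyte genes with the widest differences encode a granule proteoglycan, a lysosomal membrane protein and a signalling adaptor. Srgn, the core protein of serglycin, read 4.74 and 4.77 in serial-transplant long culture and 4.56, 4.56 and 4.48 in young-donor long culture, against 7.08, 8.27 and 6.94 in short culture. Laptm5, a lysosomal protein of blood cells, read 5.59 and 5.48 in serial-transplant long culture and 5.37, 5.51 and 5.40 in young-donor long culture, against 7.30, 8.41 and 7.42 in short culture. Fcer1g, the adaptor shared by Fc receptors, read 5.58 and 5.75 in serial-transplant long culture and 5.69, 5.76 and 5.64 in young-donor long culture, against 7.14, 7.94 and 7.10 in short culture. In each of these 3 genes every long-culture array lay below every short-culture array, and short-culture array 2 was the highest of all. Young-donor long minus short culture gave -2.90 ± 0.27 log2 (SE) for Srgn, -2.29 ± 0.23 for Laptm5 and -1.69 ± 0.19 for Fcer1g. Serial-transplant long minus short culture gave -2.67 ± 0.30, -2.18 ± 0.26 and -1.73 ± 0.21. Since their long-culture means lay under the background mark, background can have shortened these differences. They are lower bounds in size in this sense only. The same holds for any other gene that lay under the mark in long culture and above it in short culture. Spread between arrays can still have widened them. Without short-culture array 2, short minus young-donor long culture was 2.48 for Srgn, 1.94 for Laptm5 and 1.42 for Fcer1g. Where every group lay under the mark, a difference bounds nothing. In bulk RNA, fewer cells of a type and less RNA per cell cannot be told apart.

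Ptprc (CD45) read 5.99 and 5.96 in serial-transplant long culture and 5.58, 5.64 and 5.65 in young-donor long culture, against 6.84, 7.42 and 6.86 in short culture. Cd53, a tetraspanin of leukocytes, read 5.65 and 5.70 in serial-transplant long culture and 5.89, 5.96 and 6.01 in young-donor long culture, against 7.14, 7.75 and 6.27 in short culture. Neither gene overlapped between long and short culture, and for Cd53 the gap to the lowest short-culture array was narrow. The difference of young-donor long from short culture was -1.42 ± 0.14 for Ptprc and -1.10 ± 0.27 for Cd53, and that of serial-transplant long from short culture was -1.07 ± 0.16 and -1.37 ± 0.30.

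The pan-leukocyte genes Lsp1, Arhgdib and Lcp1 had group means at least 1 log2 apart and lay above the mark in every array. Lsp1, an actin-binding protein, read 8.88 and 8.30 in serial-transplant long culture and 8.83, 8.86 and 8.74 in young-donor long culture, against 9.45, 10.51 and 9.42 in short culture. Arhgdib read 8.49 and 7.69 in serial-transplant long culture and 8.42, 8.28 and 8.39 in young-donor long culture, against 9.68, 9.88 and 9.18 in short culture. Lcp1 (L-plastin, which bundles actin) read 6.54 and 6.64 in serial-transplant long culture and 6.73, 6.82 and 6.87 in young-donor long culture, against 7.59, 8.14 and 7.62 in short culture. These 3 genes were lower in every long-culture array than in any short-culture array, and their sizes are not bounds. Young-donor long minus short culture was -0.98 ± 0.25 for Lsp1 (-0.62 without short-culture array 2), -1.22 ± 0.21 for Arhgdib and -0.97 ± 0.14 for Lcp1. Serial-transplant long minus short culture was -1.20 ± 0.28, -1.49 ± 0.23 and -1.19 ± 0.16. Arhgdib differed by 0.80 between the serial-transplant arrays, more than the young-donor long arrays did among themselves.

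**Figure D2:**
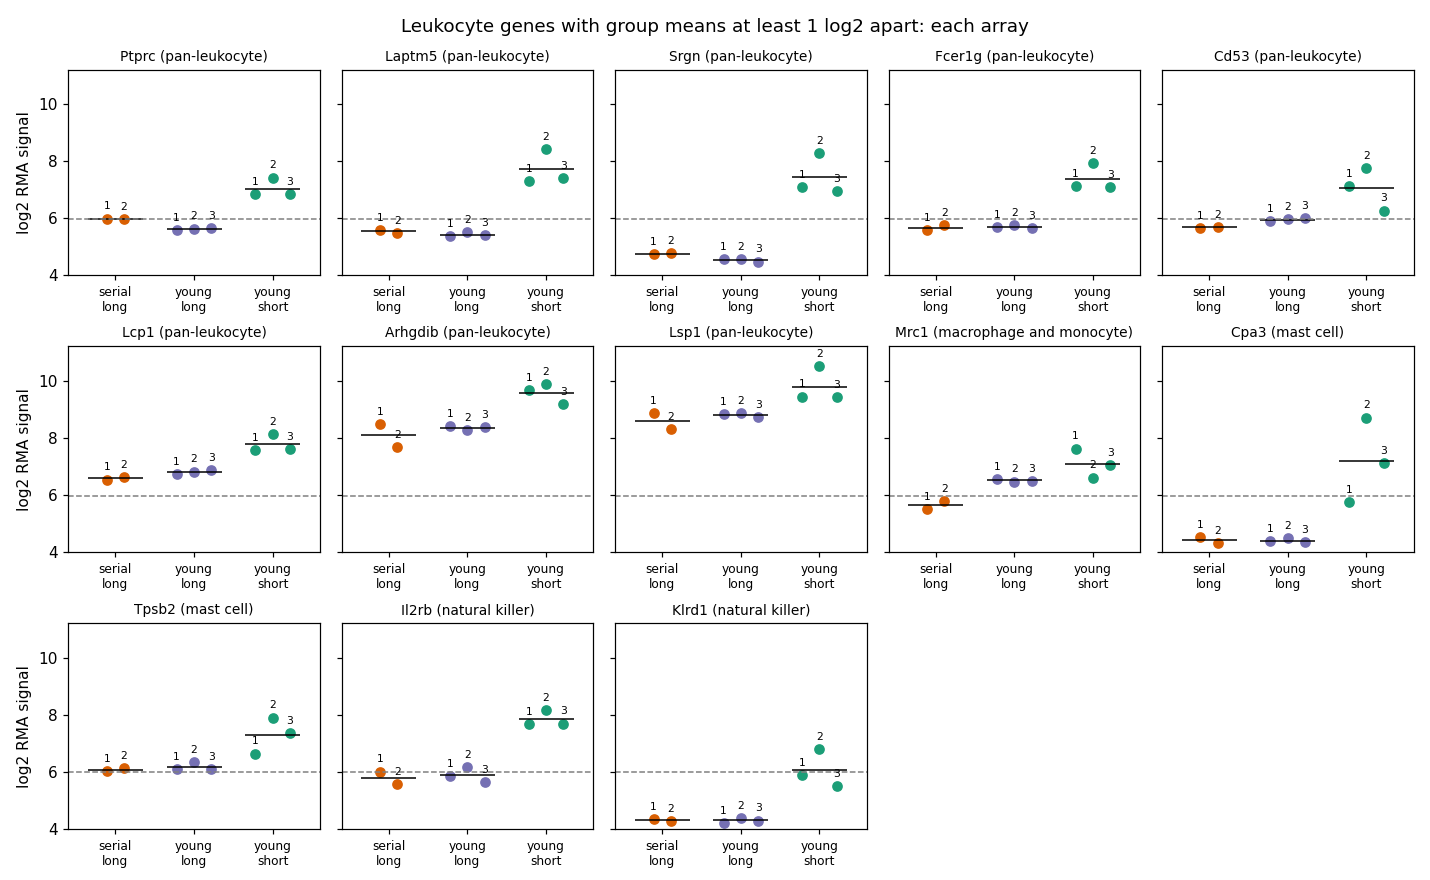
Log2 RMA signal (vertical axis) of the 13 members above background whose group means span at least 1 log2, with a point for each array numbered by replicate, a bar for each group mean and a dashed line at the background mark of 5.98. In all 13 panels the 5 long-culture arrays lie below the 3 short-culture arrays, and array 2 is the highest short-culture array in every panel but that of Mrc1. These members were picked for a wide span between groups, which favours such a gap. Of all genes, 12.1% had all 5 long-culture arrays below all 3 short-culture arrays.

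The mast cell genes divided. Cpa3, the carboxypeptidase of mast cell granules, read 4.52 and 4.32 in serial-transplant long culture and 4.38, 4.49 and 4.36 in young-donor long culture, against 5.76, 8.71 and 7.12 in short culture. Tpsb2, a mast cell tryptase, read 6.03 and 6.12 in serial-transplant long culture and 6.10, 6.34 and 6.09 in young-donor long culture, against 6.64, 7.90 and 7.36 in short culture. Both proteases were lowest in short-culture array 1 and highest in array 2 within their group, and no long-culture array reached them. The differences were -2.79 ± 0.52 for Cpa3 and -1.12 ± 0.24 for Tpsb2 in young-donor long minus short culture, and -2.78 ± 0.58 and -1.22 ± 0.27 in serial-transplant long minus short culture, with Cpa3 a lower bound. Tpsb2 has a close paralog in Tpsab1, so its probes can share targets. The defining receptor subunit was not measured above background: Fcer1a, which binds IgE, averaged 4.20, 4.30 and 4.62 in serial-transplant long, young-donor long and short culture. Hdc, which makes histamine, averaged 7.12, 6.85 and 7.03, levels that did not follow culture time. Of 12 further mast cell markers 1 was called lower in each comparison with short culture. Over all probe sets 5.15% were called lower in serial-transplant and 5.83% in young-donor long culture. The marker was Mcpt4, a granule protease at 4.89 and 4.91 in serial-transplant long culture and 4.55, 5.01 and 4.64 in young-donor long culture, against 5.66, 7.57 and 6.18 in short culture. The other 2 named by level were Kit, a receptor also found on germ cells, which was called higher in both comparisons (10.11 and 10.31 in the long cultures, against 8.90 in short culture), and Gata2 (6.80 and 7.00, against 7.17). Ms4a2, the signalling subunit of the IgE receptor, was at 4.04, 3.95 and 4.30, under the mark.

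Both natural killer members were low after long culture. Il2rb, the receptor chain shared by interleukins 2 and 15, read 6.01 and 5.56 in serial-transplant long culture and 5.87, 6.17 and 5.65 in young-donor long culture, against 7.68, 8.16 and 7.69 in short culture. Klrd1, a receptor subunit of natural killer cells, read 4.36 and 4.29 in serial-transplant long culture and 4.21, 4.39 and 4.29 in young-donor long culture, against 5.89, 6.80 and 5.50 in short culture. Klrd1 was above the mark in short-culture array 2 alone. The differences were -1.95 ± 0.17 and -1.76 ± 0.25 in young-donor long minus short culture. In serial-transplant long minus short culture they were -2.06 ± 0.19 and -1.74 ± 0.28. Those of Il2rb are lower bounds in the sense given above, and those of Klrd1 are so only through short-culture array 2.

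Further markers of natural killer and cytotoxic T cells showed a part of the same pattern. Of 17 measured, 6 were called lower in young-donor long culture and 5 in serial-transplant long culture, and none higher, where 5.83% and 5.15% of all 28944 probe sets were called lower (limma, Benjamini-Hochberg adjusted p under 0.05 over all probe sets). Prf1 (perforin) read 6.69 and 6.32 in serial-transplant long culture and 6.41, 6.59 and 6.39 in young-donor long culture, against 7.13, 7.60 and 7.29 in short culture. Gzmb (granzyme B) read 5.53 and 5.55 in serial-transplant long culture and 5.50, 5.53 and 5.78 in young-donor long culture, against 7.02, 7.85 and 6.55 in short culture. Ncr1 (an activating receptor of natural killer cells), singled out after its values were seen, read 4.86 and 5.27 in serial-transplant long culture and 4.87, 4.98 and 4.91 in young-donor long culture, against 5.87, 6.66 and 6.08 in short culture. The arrays of long and short culture did not overlap in these 3 genes. Granzyme and lectin receptor genes have close paralogs that can share probes. Other markers of these cells were under the background mark in every group: Gzma averaged 4.78, 4.70 and 4.69, Nkg7 5.44, 5.27 and 5.41, and Klrk1 4.12, 3.99 and 3.96 in serial-transplant long, young-donor long and short culture. Of the 6 called lower in young-donor long culture, Cd244a and Klrc1 had all group means under the mark, with short-culture means of 5.96 and 4.24. Eomes, a transcription factor of natural killer and trophoblast cells, averaged 6.06, 7.29 and 7.34. It was among the 5 called lower in serial-transplant long culture (-1.27 ± 0.19), but differed by -0.05 ± 0.17 in young-donor long culture. Its difference of serial-transplant from young-donor long culture, -1.23 ± 0.19, was not called.

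Mrc1, the mannose receptor of macrophages and some endothelial cells, had a pattern of its own among the members given by array. It read 5.52 and 5.79 in serial-transplant long culture and 6.56, 6.47 and 6.50 in young-donor long culture, against 7.63, 6.61 and 7.04 in short culture. The 3 groups did not overlap, and short-culture array 2 was here the lowest of its group. Serial-transplant long minus short culture was -1.44 ± 0.23 and young-donor long minus short culture -0.58 ± 0.20, or -0.83 without short-culture array 2. Over the 8 arrays Mrc1 had a Pearson correlation of 0.58 with the mean deviation of the other 12 members given by array, where those 12 had correlations of 0.92 to 0.99 with their fellows. These correlations are descriptive, and the arrays share the division into long and short culture.

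Counted over the whole set, 18 of the 38 members were called lower and 1 higher in young-donor long culture than in short culture, where 5.83% of all 28944 probe sets were called lower and 5.43% higher (11.3% in either direction). In serial-transplant long culture against short culture 18 were called lower and 1 higher, where 5.15% and 3.58% were called over all probe sets (8.73% in either direction). The comparisons share the short-culture arrays, and the set was drawn up with these differences known, so nothing is read from the shares. By lineage, 14 of 23 pan-leukocyte genes, none of 9 macrophage genes, 2 of 4 mast cell genes and 2 of 2 natural killer genes were lower in young-donor long culture, and 13, 1, 2 and 2 in serial-transplant long culture. The macrophage gene lower in serial-transplant culture was Mrc1. The median difference over the 38 members was -0.48 in young-donor long culture and -0.45 in serial-transplant long culture, and that over all probe sets -0.04 and -0.00. In 22 members all 5 long-culture arrays lay below all 3 short-culture arrays, as did 12.1% of all genes. Taking each long-culture group alone, 25 members lay lower without overlap in serial-transplant long than in short culture and 26 in young-donor long than in short culture, as did 20.4% and 17.8% of all genes. In both cases 1 member, Bin2, lay higher without overlap, as did 19.8% and 16.2% of all genes. Single arrays decided part of these calls. Without serial-transplant array 2, 4 members were called lower in the serial-transplant comparison (Laptm5, Srgn, Fcer1g and Il2rb) and none higher, where the share of all probe sets called lower was 0.183%. Without serial-transplant array 1, 13 were lower and none higher, against 3.06% of all probe sets lower. Without young-donor long array 3, 12 members were called lower and none higher in the young-donor comparison, where 2.1% of all probe sets were called lower.

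**Figure D3:**
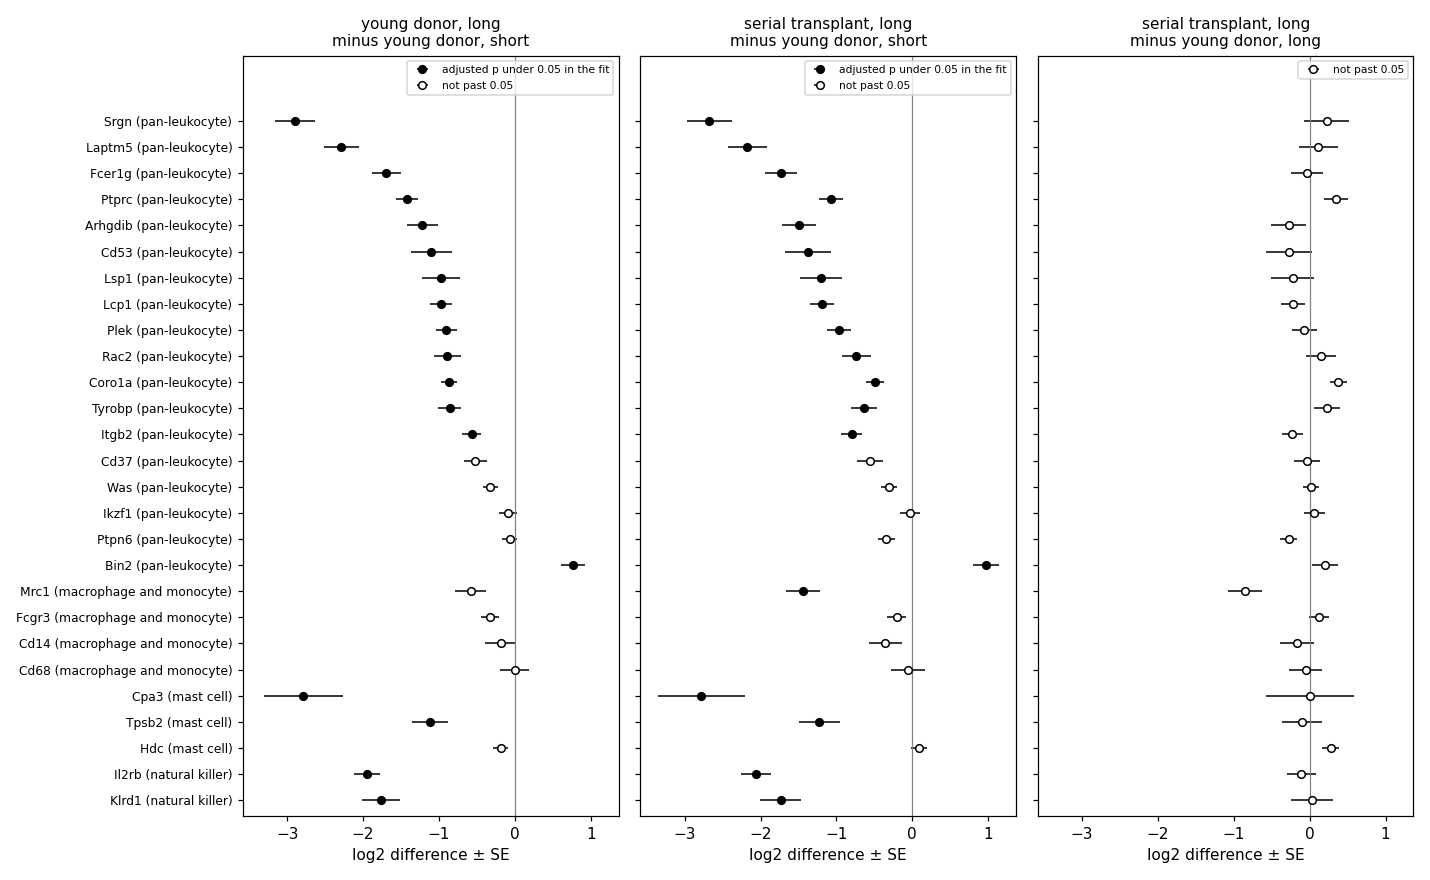
Log2 differences with standard errors (horizontal axis) for the 27 members above background in some group, in the 3 comparisons of groups. Filled points were called in limma and open points were not; points run from -2.90 for Srgn to 0.97 for Bin2, and no point is filled in serial-transplant against young-donor long culture.

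The gene called higher after long culture was Bin2, a membrane-curving protein of leukocytes. Bin2 read 9.41 and 9.25 in serial-transplant long culture and 8.83, 9.14 and 9.39 in young-donor long culture, against 8.40, 8.11 and 8.58 in short culture. Its differences were 0.76 ± 0.16 in young-donor long minus short culture and 0.97 ± 0.17 in serial-transplant long minus short culture, opposite in sign to those of Lsp1 and Arhgdib, the only other members with group means above 8. The call was lost without young-donor long array 3 in the first comparison and without either serial-transplant array in the second.

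Of the 14 members above background with group means less than 1 log2 apart, 5 were called lower in both comparisons with short culture. Over all probe sets 5.83% were called lower in young-donor and 5.15% in serial-transplant long culture. The class was cut by the span of the same group means, so the count only describes it. Coro1a, which regulates actin in lymphocytes, read 7.57 and 7.36 in serial-transplant long culture and 7.03, 7.00 and 7.24 in young-donor long culture, against 7.95, 7.92 and 7.99 in short culture. Coro1a, Plek, Rac2, Tyrobp (an adaptor of myeloid and natural killer receptors) and Itgb2 (the beta chain of leukocyte integrins) were these 5, between -0.90 and -0.57 in young-donor long culture and between -0.97 and -0.49 in serial-transplant long culture. Plek, a substrate of protein kinase C, came close to the span of 1 log2 set for values by array, at -0.97 in serial-transplant and -0.90 in young-donor long culture, and Bin2 was as close. The long-culture means of Plek were 5.11 and 5.17, under the background mark. Rac2, the Rac GTPase of blood cells, averaged 6.38 and 6.23 in the long cultures, against 7.11 in short culture. Cd48 was called lower in young-donor long culture (-0.45 ± 0.12), with all group means under the mark, and lost this call with the arrays of those groups only, without young-donor long array 1 or 3, and without short-culture array 2 or 3.

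Other members did not pass in either comparison with short culture. Cd37, a tetraspanin, differed by -0.52 ± 0.15 and -0.56 ± 0.17 and Was, which drives actin branching, by -0.32 ± 0.10 and -0.31 ± 0.11 in young-donor and serial-transplant long culture. Ikzf1 (the transcription factor Ikaros) averaged 6.07, 6.01 and 6.10, Ptpn6 (the phosphatase SHP-1) 6.76, 7.04 and 7.11, Fcgr3 (an Fc receptor) 6.49, 6.36 and 6.69 and Cd68 (a lysosomal protein of macrophages and other cells) 7.51, 7.56 and 7.56 in serial-transplant long, young-donor long and short culture. Cd14, the lipopolysaccharide co-receptor, was above the mark in short-culture array 2 (6.60) and in young-donor long array 1 (6.10) only. The remaining members, Cytip, Vav1 and Cd52, had their highest group means between 5.38 and 5.75, under the mark.

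Serial-transplant and young-donor long cultures were compared to see whether donor history changed the set at equal culture time. None of the 38 members was called at an adjusted p of 0.05 in limma, and neither was any of the 28944 probe sets, a share of 0.0%. At an unadjusted p of 0.05, 4 members and 2079 probe sets passed. Mrc1 had the smallest p, at -0.85 ± 0.23 log2 (adjusted p = 0.419 in limma, lower in both serial-transplant arrays than in all 3 young-donor long arrays), or an adjusted p between 0.0441 and 0.994 over the alternatives. Coro1a followed at 0.38 ± 0.12 (adjusted p = 0.479 in limma, higher in both arrays), then Hdc at 0.28 ± 0.11 (adjusted p = 0.638) and Ptpn6 at -0.28 ± 0.11 (adjusted p = 0.649). The pan-leukocyte genes with the widest difference from short culture differed little here, by 0.22 ± 0.30 for Srgn, 0.11 ± 0.26 for Laptm5 and -0.03 ± 0.21 for Fcer1g. Without overlap, 5 members lay lower and 5 higher in serial-transplant than in young-donor long culture, as did 11.4% and 15.1% of all genes. The median over the members was 0.01 and that over all probe sets 0.02. With 2 arrays against 3, a p above the threshold does not show that the groups were alike.

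Short-culture array 2 stood apart from its group, correlating at 0.991 and 0.990 with arrays 1 and 3 where those correlated at 0.996, and its array weight was the lowest of the 8 (0.328). Of the 13 members given by array, 12 were higher in it than the mean of arrays 1 and 3, by a median of 0.90 log2 over the 13. These 13 were picked for a wide span between groups, to which array 2 contributed. Over all 38 members 29 were higher in it and 9 lower, with a median of 0.44, and over all 19938 genes 52.2% were higher, with a median of 0.01. Of the 25 members not given by array 17 were higher and 8 lower, with a median of 0.09. Cpa3, at 2.27, had the largest such difference of any gene on the array. Srgn followed among the members at 1.26, Klrd1 at 1.10 and Lsp1 at 1.07. Mrc1 went the other way at -0.72. Without short-culture array 2, 18 members were called lower in young-donor long culture and 16 in serial-transplant long culture. In these fits 4.34% and 4.5% of all probe sets were called lower. The mean of short-culture arrays 1 and 3 minus that of young-donor long culture was 1.42 for Fcer1g, 1.94 for Laptm5, 2.48 for Srgn and 2.03 for Cpa3, so that these genes were lower in long culture without array 2 too.

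**Figure D4:**
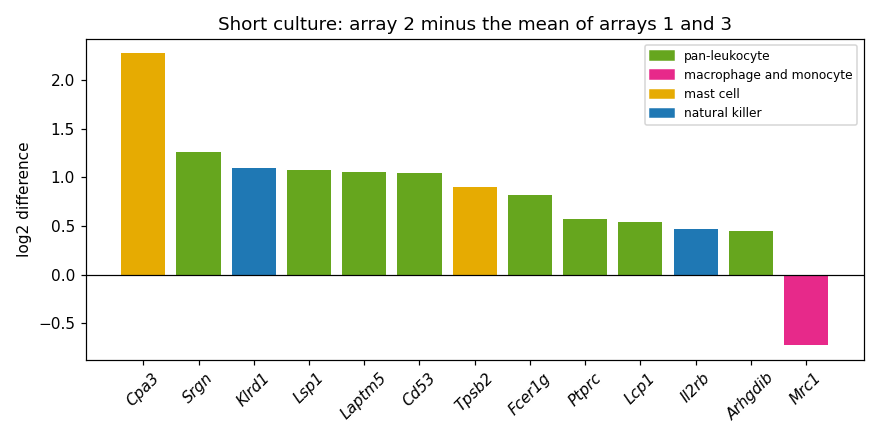
Log2 signal of short-culture array 2 minus the mean of short-culture arrays 1 and 3 (vertical axis) for the 13 members given by array, coloured by lineage. Cpa3 stands highest at 2.27 and Mrc1 is the only bar below 0, at -0.72.

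Among markers of other cell types, the fibroblast list was lower after long culture like the set, and the other lists held few or no genes called lower. The labelled cell type was present throughout: all 14 germ cell markers lay above the mark in every group, with a mean log2 level per array of 10.20 to 10.25 in serial-transplant long culture, 9.89 to 10.12 in young-donor long culture and 9.63 to 10.09 in short culture. Fibroblast genes were lower after long culture, 12 of 14 called in young-donor long culture and 11 in serial-transplant long culture (5.83% and 5.15% of all probe sets), with mean levels per array of 8.47 to 9.04, 8.94 to 8.997 and 9.59 to 10.10 in the 3 groups. Their highest level, like the lowest of the germ cell list, was in short-culture array 2. The part of fibroblast content in the leukocyte values was not tested. Of 14 T cell genes 6 lay above the mark in serial-transplant long, 7 in young-donor long and 9 in short culture. They were led by Lat, Bcl11b and Cd3e, and Lat averaged 8.81, 8.00 and 8.22 in the same order. In each comparison with short culture 1 T cell gene was called lower, Cd3e in young-donor and Cd3g in serial-transplant long culture. B cell genes numbered 0 and 1 called lower of 11, neutrophil genes 0 and 1 of 12, and platelet genes 0 and 1 of 6. No erythroid gene of 6 or endothelial gene of 10 was called. Mean levels of these dim lists were also highest in short-culture array 2, for example 5.15 for neutrophil genes against 4.98 and 4.998 in its fellow arrays.

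**Figure D5:**
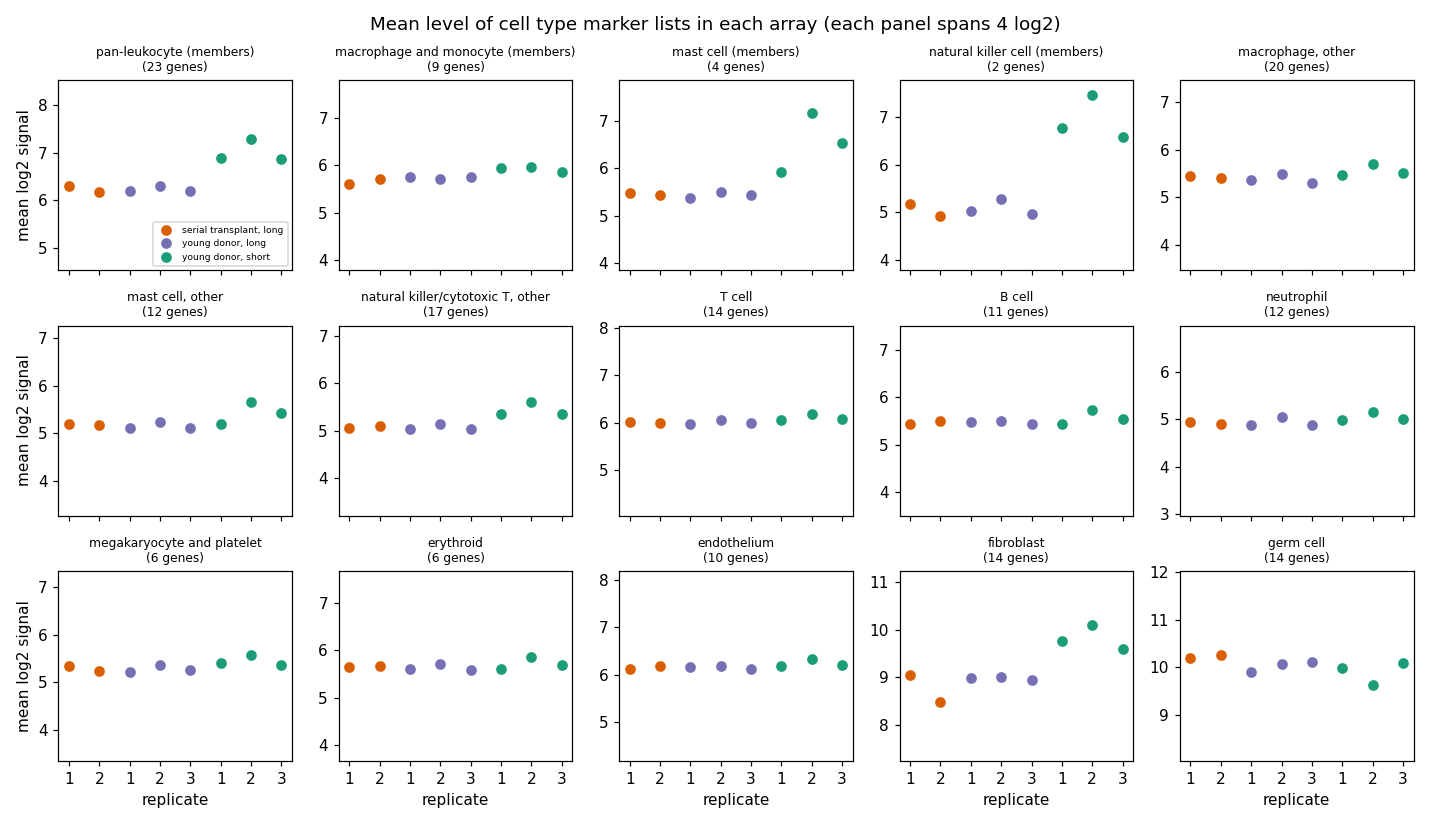
Mean log2 RMA signal of each marker list (vertical axis, every panel spanning 4 log2) in each array (horizontal axis, replicate number within group). The natural killer, mast cell and pan-leukocyte members and the fibroblast list are higher in short culture. The 9 macrophage members lie between 5.86 and 5.97 there and between 5.60 and 5.75 in long culture. The 20 further macrophage genes lie between 5.31 and 5.70 over all arrays, highest in short-culture array 2.

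The wider leukocyte programme was described by 5 further lists. Of 30 measured genes of signalling downstream of immune receptors, 7 were lower and 2 higher in young-donor long culture and 5 and 1 in serial-transplant long culture, with list medians of -0.16 and -0.13. Over all probe sets 5.83% were lower and 5.43% higher in young-donor long culture, and 5.15% and 3.58% in serial-transplant long culture, and these shares stand beside every list that follows. Its 3 brightest members were Plcg2, Sh2b3 and Pik3cd, of which Plcg2, a phospholipase, was called higher in both. Lilrb4a, an inhibitory receptor chosen after its values were seen, read 4.74 and 4.87 in serial-transplant long culture and 4.73, 4.71 and 4.87 in young-donor long culture, against 6.53, 6.78 and 6.10 in short culture. Of 21 adhesion and cytoskeleton genes, 2 and 3 were lower and 1 and 0 higher, the brightest being Evl, Icam1 and Wipf1. Of 22 haematopoietic transcription factors, 2 and 1 were lower and 2 and 3 higher: Runx1 was lower in both (-1.08 ± 0.17 and -1.22 ± 0.18) and Runx3 higher in both, and the brightest were Irf8, Bach2 and Runx3. Of 15 phagosome and granule genes, 2 and 1 were lower and none higher, with Cyba, the oxidase subunit partner of Cybb, at 8.57 and 8.35 in serial-transplant and young-donor long culture, against 9.23 in short culture. Of 13 cytokine receptors, 1 and 2 were lower, Il4ra in both and Cxcr4 in serial-transplant culture, and none higher.

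The genes whose profile over the 8 arrays was closest to the mean deviation of the 13 members were found among 509 other genes above background with group means at least 1 log2 apart. The 10 closest were Ppp3ca, Car13, Cc2d2a, Ubr1, Dsc2, Gbp8, Gsta4, Zeb2, Klrb1b and Gzmd, with Pearson correlations between 0.983 and 0.989. Klrb1b is a lectin receptor of natural killer cells and Gzmd a granzyme, while Ppp3ca (a calcineurin subunit) and Gsta4 (a glutathione transferase) are expressed in many cell types. Klrb1b read 5.28 and 5.30 in serial-transplant long culture and 4.95, 5.53 and 5.39 in young-donor long culture, against 6.70, 8.06 and 6.96 in short culture. Gzmd averaged 4.04 and 4.04 in the long cultures, against 9.44 in short culture. The mean deviation they were set against was -0.62 and -0.74 in serial-transplant long culture and -0.60, -0.52 and -0.61 in young-donor long culture, against 0.76, 1.58 and 0.74 in short culture.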

How the data were processed

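Per the labels' protocols, Trizol-extracted RNA was biotin-labelled for Affymetrix arrays. The authors deposited log2 signals per probe set, and the submitters' processing notes name RMA and Partek 6.4. The log2 scale was read from the values (2.42 to 14.81, array medians 6.90 to 6.98). Settings of RMA and filters on probes are unstated in these sources, and scanner files were not analysed here.

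Of 35557 rows, 6613 in a run of consecutive identifiers were taken for control probe sets and left out. Of the 28944 tested, 21789 have 1 gene symbol, 1621 several and 5534 none in GEO's platform annotation. All 38 members matched a RefSeq table (GRCm38.p6) by gene number. The group comparisons used limma 3.58.1 (R 4.3.3) with 1 mean per group over the 8 arrays, 5 residual and 6.28 prior degrees of freedom and two-sided p-values, adjusted by Benjamini-Hochberg across the 28944 probe sets with a threshold of 0.05. The step was tested on simulated data.

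Members and lists were chosen with earlier results of these data known. Values by array are given for members above background with group means at least 1 log2 apart, and up to 3 genes of other lists are named by highest group mean. No 2 arrays held identical values.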

Additional observations from a re-analysis of the deposited data

How the results depend on the processing

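Limits first: 2 or 3 arrays a group, a background mark that does not adjust for probe composition, and members near that mark. Alternatives were quantile normalization, centring, an intensity trend with robust variances, array weights, the arrays of the 2 groups only, a filter on dim probe sets, the replicate number as a block and each array left out; the mean over probe sets was not run, since every member has 1. In young-donor long against short culture 17 to 23 members were called lower with all arrays and all probe sets. Of all probe sets 4.6% to 8.95% were lower in these settings, the most with array weights, which also gave the 23. Under the dim filter 15 of 20 tested were lower, against 9.76% of all. With an array left out 12 to 19 were lower, against 2.1% to 6.08% of all, and 0 or 1 was called higher. In serial-transplant long against short culture 17 or 18 were lower (15 of 20 under the dim filter), except 11 with the arrays of those groups only, and 4 to 19 with an array left out, where 0 or 1 was higher. Deviations of same-numbered arrays from their group means correlated between -0.268 and 0.176, so the numbers were not taken to pair arrays. With the replicate block, 19 members were lower in young-donor and 18 in serial-transplant long culture against short culture (5.14% and 5.05% of all probe sets). In each, 1 was higher (4.37% and 3.47% of all probe sets). Cd37 gained a call in both and Coro1a lost its call in serial-transplant culture. None of the members was called between the long cultures with this block. Between the long cultures 1 member, Mrc1, was called with the arrays of those groups only (adjusted p = 0.0441 in limma) and 0 in every other setting, leaving out an array included. Cd53 and Lsp1 lost their calls in young-donor culture without any of the 3 young-donor long arrays, Cd53 also without short-culture array 1, and Tpsb2 and Itgb2 without young-donor long array 1 or 3. Mrc1 gained a call there without short-culture array 2. With array weights Mrc1, Aif1, Vav1, Cd37 and Was gained calls there, so that 2 of the 9 macrophage genes were lower, and with the intensity trend Cd53 and Lsp1 lost theirs. No called member changed sign. With the median of all probe sets (6.94) as the mark, 6 members were above it in serial-transplant long culture, 6 in young-donor long culture and 20 in short culture. At the 75th percentile of olfactory receptor genes the counts were 32 in each long-culture group, and at the 99th percentile 6 in serial-transplant and 8 in young-donor long culture; with an array left out they ran from 14 to 18 in serial-transplant, 16 to 16 in young-donor long and 24 to 27 in short culture. The cause of these changes was not tested.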
